A study of Mus musculus with 2 samples.

Results

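The core circadian clock genes of the mouse were read here in adrenal gland. They are the activators Arntl, Clock and Npas2, the repressors Per1, Per2, Per3, Cry1 and Cry2, and the nuclear receptors Nr1d1 and Nr1d2, 10 of the 55450 genes in the deposited tables. The 10 genes were chosen by name after earlier results of these same libraries had shown several of them at different levels in the 2 libraries. The ratios between the libraries are therefore descriptions of these 2 libraries and carry no test. The adrenal tissue came from 36-day-old females of B6CASTF1/J, an F1 hybrid of the strains C57BL/6J and CAST/EiJ, supplied by The Jackson Laboratory, and its total RNA was sequenced. The 2 libraries, each from 300 ng of ribosome-reduced RNA with ERCC spike-ins, form the only group, so the design holds no comparison of conditions. The labels number the animals differently in one field and alike in another, and give both libraries the same donor identifier. If both libraries came from 1 animal, the SDs below are those of repeat libraries and not of animals. The labels used here give no time of day for tissue collection.

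The circadian clock is a transcriptional feedback loop that runs in nearly every cell of the body. ARNTL (also called BMAL1) pairs with CLOCK or NPAS2 and activates genes through E-boxes, among them the Per and Cry genes, whose proteins return to the nucleus and repress that pair. A second loop is closed by NR1D1 and NR1D2 (REV-ERB alpha and beta), which repress Arntl through ROR elements, and a further input comes from D-box factors such as DBP and NFIL3. In the adrenal cortex this clock is known to set the daily rhythm of glucocorticoid output, together with the pituitary hormone ACTH, which acts through cAMP.

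The short DNA elements of this loop were searched for in the RefSeq promoter windows of the genes, from 250 bases before to 50 bases after each annotated start, on both strands (GRCm38.p6, the mm10 assembly). Of the 10 genes 9 matched, with 13 windows in all, and Per2 did not. The E-box CACGTG was found in the windows of Per1 and Cry1, and in 7.15% of all 32851 windows. Its variant CACGTT, read AACGTG on the other strand, was found in Cry1, Cry2 and Nr1d1, and in 4.68% of all windows. The D-box, TTATGTAA or TTACGTAA, was found only in Per3 among the 9 genes, at 2 places, and in 1.06% of all windows. The ROR element core, TAGGTCA or TGGGTCA, was found only in Arntl among the 9 genes, and in 6.45% of all windows. The full cAMP response element TGACGTCA was found in none of the 9 genes and in 1.79% of all windows, and its half-site TGACG, which the full element also holds, was found in Per1, Cry1 and Cry2 and in 20.8% of all windows. These matches are descriptions of the letters, and the libraries hold no measurement of binding.

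The sequences that hold these E-boxes, D-boxes and the ROR element are given because these elements are what the loop's own factors bind, with the element in capitals. The Per1 sequence is the 250 bases before its first RefSeq start, chr11:69098699-69098948 on the plus strand, with the E-box beginning 166 bases before the start. It lies inside the span of Per1-202, a transcript that starts further upstream.
Per1: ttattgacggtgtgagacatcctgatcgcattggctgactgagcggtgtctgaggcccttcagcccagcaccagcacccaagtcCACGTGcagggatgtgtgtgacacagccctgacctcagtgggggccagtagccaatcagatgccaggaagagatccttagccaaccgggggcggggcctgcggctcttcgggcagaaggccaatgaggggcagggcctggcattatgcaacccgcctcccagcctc
The Per3 sequence is chr4:151044666-151044915 on the minus strand, with D-boxes beginning 205 and 158 bases before the start.
Per3: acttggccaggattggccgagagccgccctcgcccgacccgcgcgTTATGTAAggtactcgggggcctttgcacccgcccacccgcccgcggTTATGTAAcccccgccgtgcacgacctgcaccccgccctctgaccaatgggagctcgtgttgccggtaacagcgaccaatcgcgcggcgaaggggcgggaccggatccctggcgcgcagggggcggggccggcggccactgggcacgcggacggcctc
The Cry1 sequence is chr10:85185055-85185304 on the minus strand, with the E-box variant (AACGTG) beginning 79 bases and the E-box 60 bases before the start.
Cry1: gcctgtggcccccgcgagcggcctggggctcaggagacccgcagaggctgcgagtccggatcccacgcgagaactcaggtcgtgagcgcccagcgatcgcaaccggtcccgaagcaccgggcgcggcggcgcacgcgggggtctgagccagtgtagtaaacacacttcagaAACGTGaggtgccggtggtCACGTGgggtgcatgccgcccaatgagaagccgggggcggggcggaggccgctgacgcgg
The Cry2 sequence is chr2:92434070-92434319 on the minus strand, with the E-box variant beginning 166 bases before the start.
Cry2: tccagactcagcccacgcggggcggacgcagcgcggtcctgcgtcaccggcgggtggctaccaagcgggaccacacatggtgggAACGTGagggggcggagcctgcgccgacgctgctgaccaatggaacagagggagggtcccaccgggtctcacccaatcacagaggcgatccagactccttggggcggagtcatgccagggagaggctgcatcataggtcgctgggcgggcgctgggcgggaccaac
The Nr1d1 sequence is chr11:98775378-98775627 on the minus strand, with the E-box variant 28 bases before the RefSeq start, which lies upstream of the GENCODE start.
Nr1d1: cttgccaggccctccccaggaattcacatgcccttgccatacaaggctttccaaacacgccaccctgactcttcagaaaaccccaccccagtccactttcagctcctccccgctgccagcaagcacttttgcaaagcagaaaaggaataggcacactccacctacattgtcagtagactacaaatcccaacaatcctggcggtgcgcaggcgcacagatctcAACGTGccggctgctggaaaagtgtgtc
The Arntl element lies downstream of the start, in exonic sequence that 2 annotated Arntl transcripts hold, at chr7:113207530-113207558 on the plus strand, with the core at bases 113207541 to 113207547.
Arntl: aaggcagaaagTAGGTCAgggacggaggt

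The labelled tissue was checked against its markers. All 7 adrenal cortex markers (Star, Cyp11a1, Cyp21a1, Cyp11b1, Hsd3b1, Mc2r and Nr5a1) were detected at 1 TPM or more in both libraries (TPM is a share of all transcripts, corrected for their length), with summed levels of 16361 and 16834 TPM in replicates 1 and 2. The 7 chromaffin cell markers were also detected and summed to 1502 and 1129 TPM, with 6 of 7 lower in replicate 2. Markers of skeletal muscle and liver stood apart between the libraries. The 10 muscle markers summed to 345 TPM in replicate 1 and 2.61 in replicate 2, where Myh4 was listed at 0, and the 6 liver markers summed to 33.8 and 2.28 TPM. The 6 fat markers summed to 1899 and 1883 TPM, the 5 endothelial markers to 142.5 and 144 TPM and the 5 macrophage markers to 62.9 and 54.6 TPM. Of 6 kidney markers, Umod, Slc34a1, Slc12a1 and Kap were at 0 in both libraries, where 3 counts would be 0.0841 and 0.0775 CPM (counts scaled to the total of the library). The part of muscle, liver or chromaffin RNA in the clock gene ratios was not tested. Total expected counts were 35684781 and 38701795. In whole tissue, fewer cells of a type and less RNA per cell cannot be told apart.

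Across the 10 genes the level spanned about 2 orders of magnitude, with Nr1d1 the highest and Npas2 the lowest in both libraries. By mean TPM the order was Nr1d1, Nr1d2, Per1, Clock, Cry2, Per2, Per3, Arntl, Cry1 and Npas2. Of the 9 neighbouring pairs in this order, 3 differed by more than the larger SD of the pair, namely Nr1d1 over Nr1d2, Cry2 over Per2 and Cry1 over Npas2. The other 6 pairs lay within it, and Nr1d2 with Per1, Clock with Cry2 and Per3 with Arntl changed places between the libraries. The place of Per1 moved with the quantification described below. In the table made straight from the reads, and with incomplete transcript models left out, Nr1d2 stood above Per1 in both libraries and by more than the larger SD, and Per1 and Clock changed places instead. In the read-derived table the gap of Cry2 over Per2 also lay within the larger SD. The highest gene stood 70.0-fold over the lowest in replicate 1 and 144-fold in replicate 2. The summed level of the 10 genes was 174 and 167 TPM. Of the 10 genes, 9 were detected at 1 TPM or more in both libraries, and Npas2 in replicate 1 only. Nr1d1 was exceeded in mean TPM by 898 genes and Npas2 by 13631.

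**Figure D1:**
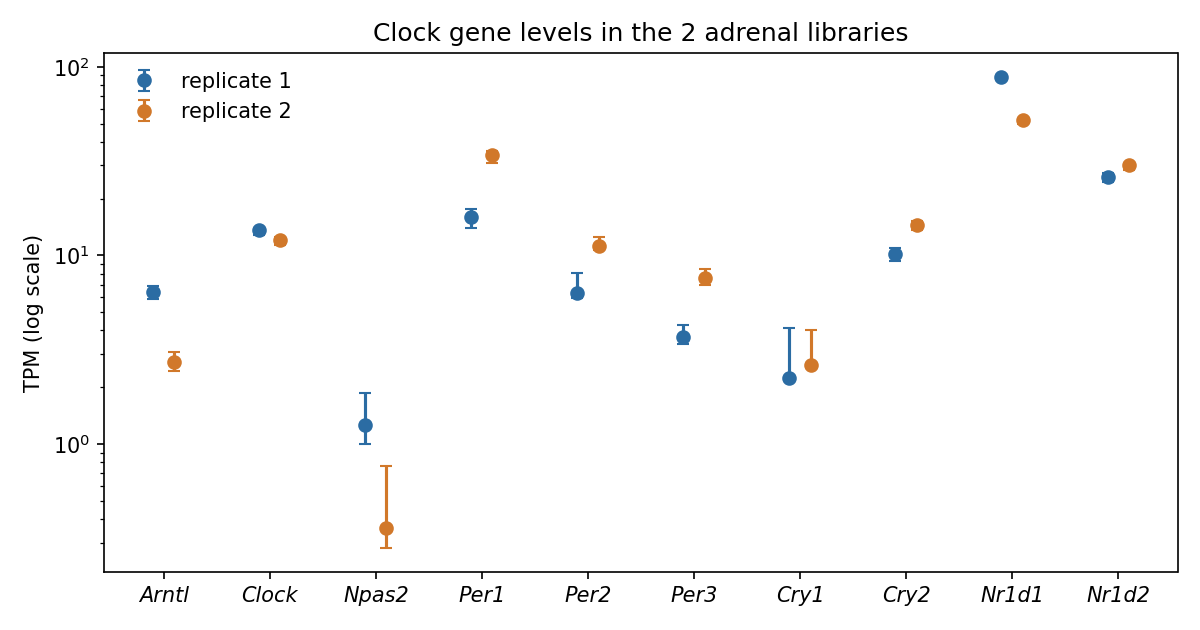
Level of each clock gene in TPM on a log axis, 1 point for each library, with bars for the TPM interval deposited beside each value. Nr1d1 is highest and Npas2 lowest in both libraries, and Per1 and Arntl part in opposite directions.

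Arntl (ENSMUSG00000055116.8, chr7:113207465-113314126, plus strand of mm10), whose protein is the partner of CLOCK and NPAS2 in activating the loop, was higher in replicate 1. Its level was 6.39 TPM in replicate 1 and 2.71 in replicate 2, a mean of 4.55 ± 2.60 TPM (SD, n = 2). The TPM intervals deposited with the values, whose level the headers do not state, were 5.84 to 6.90 and 2.43 to 3.08 and did not overlap. The expected counts were 617 and 286. As a share of all counts Arntl was 2.34-fold higher in replicate 1, with an exact 95% interval of 2.03 to 2.70 that covers counting error only. On log2(TPM + 0.1), the scale of all ratios below unless a share of counts is named, replicate 2 over replicate 1 was -1.21, and 45 of 12275 genes (0.367%) had a lower ratio. These 12275 genes are those with 200 or more expected counts summed over the libraries.

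Clock (ENSMUSG00000029238.11, chr5:76209868-76304792, minus strand), the histone acetyltransferase and DNA-binding partner of ARNTL, differed little between the libraries. It stood at 13.6 TPM in replicate 1 and 12.1 in replicate 2, a mean of 12.8 ± 1.06 TPM (SD, n = 2), with a log2 ratio of -0.17. Its TPM intervals, 12.9 to 14.0 and 11.4 to 12.5, did not overlap. From 3748 and 3414 expected counts its share of counts in replicate 2 was 0.840 times that in replicate 1 (exact 95% interval 0.802 to 0.880). Npas2 (ENSMUSG00000026077.15, chr1:39193731-39363236, plus strand), which can take the place of CLOCK, was the least abundant gene. It stood at 1.26 TPM in replicate 1 and 0.36 in replicate 2, from 126 and 46 expected counts, and so missed the minimum of 200 counts. Its share of counts was 2.97-fold higher in replicate 1 (exact 95% interval 2.10 to 4.26). Npas2 made up 8.49% of the summed TPM of Clock and Npas2 in replicate 1 and 2.89% in replicate 2. The level of Clock was 2.13 times that of Arntl in replicate 1 and 4.46 times in replicate 2.

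The Per genes were all higher in replicate 2. Per1 (ENSMUSG00000020893.17, chr11:69095217-69109960, plus strand), the period gene known to be induced fastest by outside signals, stood at 15.9 TPM in replicate 1 and 33.9 in replicate 2, a mean of 24.9 ± 12.7 TPM (SD, n = 2). Its intervals of 14.0 to 17.6 and 31.0 to 35.9 TPM did not overlap. The expected counts of 1691 and 3735 gave a 2.04-fold higher share in replicate 2 (exact 95% interval 1.92 to 2.16). Per1 had a log2 ratio of 1.09 that 37 of the 12275 genes (0.301%) exceeded. Per2 (ENSMUSG00000055866.9, chr1:91415982-91459324, minus strand), whose protein binds the cryptochromes in the repressor complex, stood at 6.32 and 11.3 TPM, a mean of 8.80 ± 3.51 TPM (SD, n = 2), from 1307 and 2502 expected counts. Its intervals of 5.96 to 8.10 and 10.7 to 12.5 TPM did not overlap. Its share of counts was 1.77-fold higher in replicate 2 (exact 95% interval 1.65 to 1.89), and its log2 ratio of 0.83 was exceeded by 81 genes (0.66%). Per3 (ENSMUSG00000028957.12, chr4:151003652-151044665, minus strand), the period gene known to matter least for rhythm in mice, stood at 3.69 and 7.61 TPM, a mean of 5.65 ± 2.77 TPM (SD, n = 2), from 667 and 1497 expected counts. Its intervals of 3.40 to 4.26 and 6.98 to 8.43 TPM did not overlap. Its share of counts was 2.07-fold higher in replicate 2 (exact 95% interval 1.89 to 2.27), and its log2 ratio of 1.02 was exceeded by 48 genes (0.391%). Per1 had the higher ratio of the pair on TPM, and Per3 by share of counts and under TMM or size factor scaling of the counts. In replicate 2 each of the 3 Per genes thus stood above its upper bound in replicate 1.

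Summed over the family, the Per level was 25.9 TPM in replicate 1 and 52.8 in replicate 2. The shares within the family differed by a few percentage points: Per1 made up 61.4% and 64.2%, Per2 24.4% and 21.4%, and Per3 14.2% and 14.4%. In the second quantification, described below, the Per1 share was lower, at 50.6% and 54.3%. Set against the activator, Per1 was 2.49 times the TPM of Arntl in replicate 1 and 12.5 times in replicate 2, and Per2 was 0.989 and 4.16 times. In the read-derived table Per1 was 1.57 and 7.96 times the TPM of Arntl, and with incomplete transcript models left out 1.59 and 7.86 times.

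The cryptochromes, which bind the CLOCK and ARNTL pair directly as its main repressors, were unlike each other. Cry2 (ENSMUSG00000068742.11, chr2:92403646-92434043, minus strand) stood at 10.2 TPM in replicate 1 and 14.5 in replicate 2, a mean of 12.3 ± 3.08 TPM (SD, n = 2), with 1221 and 1954 expected counts. Its intervals of 9.32 to 11.0 and 13.6 to 15.2 TPM did not overlap. Its share of counts was 1.48-fold higher in replicate 2 (exact 95% interval 1.37 to 1.59), and its log2 ratio of 0.51 was exceeded by 369 genes (3.01%). Cry2 shares 4.67% of its exonic bases with D930015M05Rik on the opposite strand, which was at 0.03 and 0 TPM. Cry1 (ENSMUSG00000020038.10, chr10:85131700-85185064, minus strand) stood at 2.24 and 2.62 TPM, a mean of 2.43 ± 0.269 TPM (SD, n = 2), with 236 and 297 expected counts. Cry1 was the only one of the 10 genes whose TPM intervals overlapped (2.25 to 4.15 and 2.52 to 4.04), and its value in replicate 1 lay just under its own lower bound. The ratio of its shares of counts, 1.16, had an exact 95% interval of 0.975 to 1.38, so a difference in Cry1 was not detectable at this depth. Cry2 made up 81.9% of the summed Cry TPM in replicate 1 and 84.7% in replicate 2, and the sum was 12.4 and 17.1 TPM.

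Nr1d1 (ENSMUSG00000020889.11, chr11:98767932-98775333, minus strand), the repressor of Arntl known for a strong daily swing in many tissues, was the most abundant clock gene. It stood at 88.3 TPM in replicate 1 and 51.9 in replicate 2, a mean of 70.1 ± 25.7 TPM (SD, n = 2), from 8085 and 5178 expected counts. Its share of counts was 1.69-fold higher in replicate 1 (exact 95% interval 1.64 to 1.75), and its log2 ratio of -0.76 was undercut by 97 genes (0.79%). Nr1d1 and Arntl, a repressor and its target, were thus both lower in replicate 2. Nr1d2 (ENSMUSG00000021775.11, chr14:18204054-18239127, minus strand), its paralogue, went the other way with a small ratio. It stood at 26.0 and 30.0 TPM, a mean of 28.0 ± 2.79 TPM (SD, n = 2), with a log2 ratio of 0.20. Its intervals of 24.6 to 27.2 and 28.4 to 31.0 TPM did not overlap, and its share of counts was 1.15-fold higher in replicate 2 (exact 95% interval 1.10 to 1.20). Nr1d1 made up 77.2% of the summed Nr1d TPM in replicate 1 and 63.4% in replicate 2, and the sum was 114 and 81.9 TPM. Nr1d1 shares 263 bases, 8.55% of its exonic bases, with exons of Thra, a thyroid hormone receptor gene on the opposite strand. Thra stood at 24.9 and 27.8 TPM. Whether the counting used strand is not given in the sources used here, so reads in those bases are uncertain.

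In all, 6 of the 10 genes were higher in replicate 2 (Per1, Per2, Per3, Cry1, Cry2 and Nr1d2) and 4 were lower (Arntl, Clock, Npas2 and Nr1d1). Beside them, 7156 of all 12275 genes (58.3%) were higher in replicate 2. Of the 9 clock genes that passed the count minimum, 3 were 2-fold or more apart, against 111 of all 12275 genes (0.904%). Per1 and Per3 were 2-fold or more higher in replicate 2, as were 52 of all genes (0.424%). Arntl was 2-fold or more lower, as were 59 of all genes (0.481%). The TPM intervals of the libraries did not overlap for 9 of the 10 genes, and for 1834 of the 12275 genes (14.9%). The median size of the log2 ratio, whatever its sign, was 0.79 over the 10 genes and 0.12 over the 12275 genes. The median signed ratio was 0.21 over the 10 genes and 0.04 over the 12275, whose SD was 0.37. Figures for the 10 genes include Npas2, which missed the count minimum that the 12275 genes passed. Since these ratios led to the choice of the genes, the counts describe the choice and support nothing further.

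**Figure D2:**
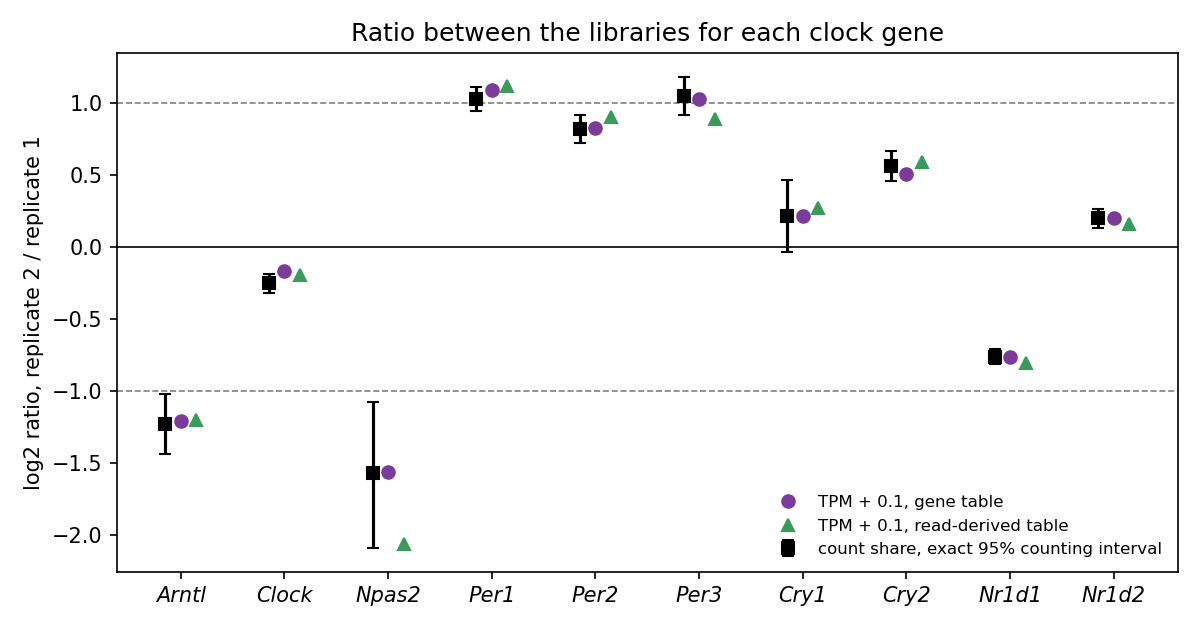
Log2 ratio of replicate 2 over replicate 1 for each clock gene, from shares of expected counts (squares, bars for the exact 95% counting interval), from TPM + 0.1 in the gene table (circles) and from TPM + 0.1 in the read-derived table (triangles), with dashed lines at 2-fold. The sign is the same by all 3 measures for each gene, and of the bars only that of Cry1 crosses 0.

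The same reads had been quantified by the authors a second time, straight from the reads rather than from an alignment. In that read-derived table Per1 stood at 17.3 and 37.8 TPM, Arntl at 11.0 and 4.74 TPM, and Nr1d1 at 148 and 84.9 TPM. Per2 stood at 10.4 and 19.6 TPM, Per3 at 6.51 and 12.2 TPM, Cry1 at 3.67 and 4.46 TPM, and Cry2 at 15.6 and 23.6 TPM. Clock stood at 23.1 and 20.3 TPM, Npas2 at 2.43 and 0.508 TPM, and Nr1d2 at 40.9 and 45.6 TPM. The signs of the 10 ratios were the same, with log2 ratios of 1.12 for Per1, 0.90 for Per2, 0.89 for Per3, -1.20 for Arntl, -0.80 for Nr1d1 and -2.06 for Npas2. Per3 was then under 2-fold. Levels were higher in the read-derived table for all 10 genes, by 1.74-fold at the median of the 12275 genes and by 1.54- to 1.82-fold for 9 of the clock genes. Per1 was the exception at 1.10-fold, and the transcript tables show where its values part.

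Per1 has several annotated starts, and its transcripts were split differently by the tables. Per1-201, the longest form, held 53.1% of the Per1 TPM in replicate 1 and 48.7% in replicate 2 in the alignment-derived table, and 79.6% and 74.4% in the read-derived table. Per1-204, a model of 496 bases with an incomplete end and only 6 bases that no other Per1 transcript holds, took 36.4% and 37.5% in the first and 0 and 3.39% in the second. By counts the same model held only 4.90% and 5.23% of Per1, as TPM divides counts by the effective length. That length, the number of positions a fragment can start at, was 397 bases in the alignment-derived table and 175.7 in the read-derived table for replicate 1. A shorter length raises TPM at the same count. The counts placed on Per1-204 also differed, at 82.9 and 195 in the alignment-derived table and 0 and 6.04 in the read-derived table. With incomplete models left out, an alternative added after the data were seen, Per1 stood at 10.1 and 21.2 TPM, and its log2 ratio was 1.06. The read-derived level of Per1, with all its models kept, was 1.76-fold higher than that, near the median gene. For Npas2 the same comparison gave 2.72-fold in place of 1.82-fold, away from the median gene. The level of Per1 moved with Per1-204 more than its ratio between the libraries did. Even the longest form was placed loosely, since the Per1-201 value of 8.45 TPM in replicate 1 lay above its own deposited interval of 2.84 to 7.55 TPM. Per1-206, a coding form of 4636 bases with 0 bases of its own, was at 0 TPM there, with an interval of 0.627 to 5.76 TPM.

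Per1-202, which starts upstream of the other forms and holds 243 bases of its own, was at 1.19 TPM in replicate 1 and 4.59 in replicate 2. Its intervals of 0.772 to 1.53 and 3.85 to 5.12 TPM did not overlap. Its share of Per1 TPM was 7.48% and 13.5%, and 12.4% and 19.7% in the read-derived table, higher in replicate 2 in both.

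By TPM, Clock was the only one of the 10 genes without the same leading transcript in both libraries and both tables. Clock-201 held 41.1% of Clock TPM in replicate 1 and 28.9% in replicate 2, and Clock-205, the longest form with 2329 bases of its own, held 39.6% and 43.0%. Clock-201 and Clock-205 were thus close in replicate 1, with overlapping intervals of 4.72 to 6.18 and 4.80 to 5.79 TPM. In the read-derived table Clock-201 led in both libraries, at 56.4% and 48.2%, with Clock-205 at 21.8% and 25.3%. In replicate 2, Clock-201 stood below Clock-205 by the alignment-derived values only. Its alignment-derived level was 5.58 TPM in replicate 1 and 3.49 in replicate 2, with intervals of 4.72 to 6.18 and 2.60 to 4.01 TPM that did not overlap. Clock-205, at 5.38 and 5.20 TPM, hardly differed. Clock transcripts annotated with a retained intron held 6.04% and 12.0% of Clock TPM, and 5.20% and 8.03% in the read-derived table.

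The other genes differed in how much of their TPM lay in a single coding form. Per2-201 and Cry1-201 held 100% of their genes in both libraries and both tables. Nr1d1-201 held 95.8% and 97.7%, and the remainder was Nr1d1-202, a short processed transcript at 3.72 and 1.21 TPM. Arntl-201 held 70.7% and 68.9% of Arntl, followed by Arntl-206 at 16.5% and 20.7%. Cry2-201 held 77.5% and 80.1% of Cry2. Its shorter coding form Cry2-202 was at 0.76 TPM in replicate 1 and 1.95 in replicate 2, with intervals of 0.397 to 1.17 and 1.35 to 2.59 TPM that did not overlap. Per3 and Nr1d2 held the largest shares of TPM in transcripts not annotated as protein-coding. These made up 34.4% and 30.6% of Per3, with retained introns at 27.6% and 20.9%. Of Nr1d2 they made up 23.1% and 23.6%, all of it in retained introns. In the read-derived table they made up 35.9% and 25.7% of Per3, and 15.5% and 19.0% of Nr1d2. Their part was smaller by expected counts, where the coding form Per3-201 held 77.3% and 80.5% of Per3, and Nr1d2-201 held 92.2% and 92.0% of Nr1d2. In total-RNA libraries unspliced RNA is also sequenced, and its part in these values was not tested. Npas2-201 held 63.5% and 77.8% of Npas2, and the rest lay in Npas2-203, an incomplete model of 484 bases with 6.39 and 1.25 expected counts. In the read-derived table Npas2-201 held 57.05% and 100%. Without Npas2-203, Npas2 stood at 0.80 and 0.28 TPM in the alignment-derived table and its log2 ratio was -1.24.

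**Figure D3:**
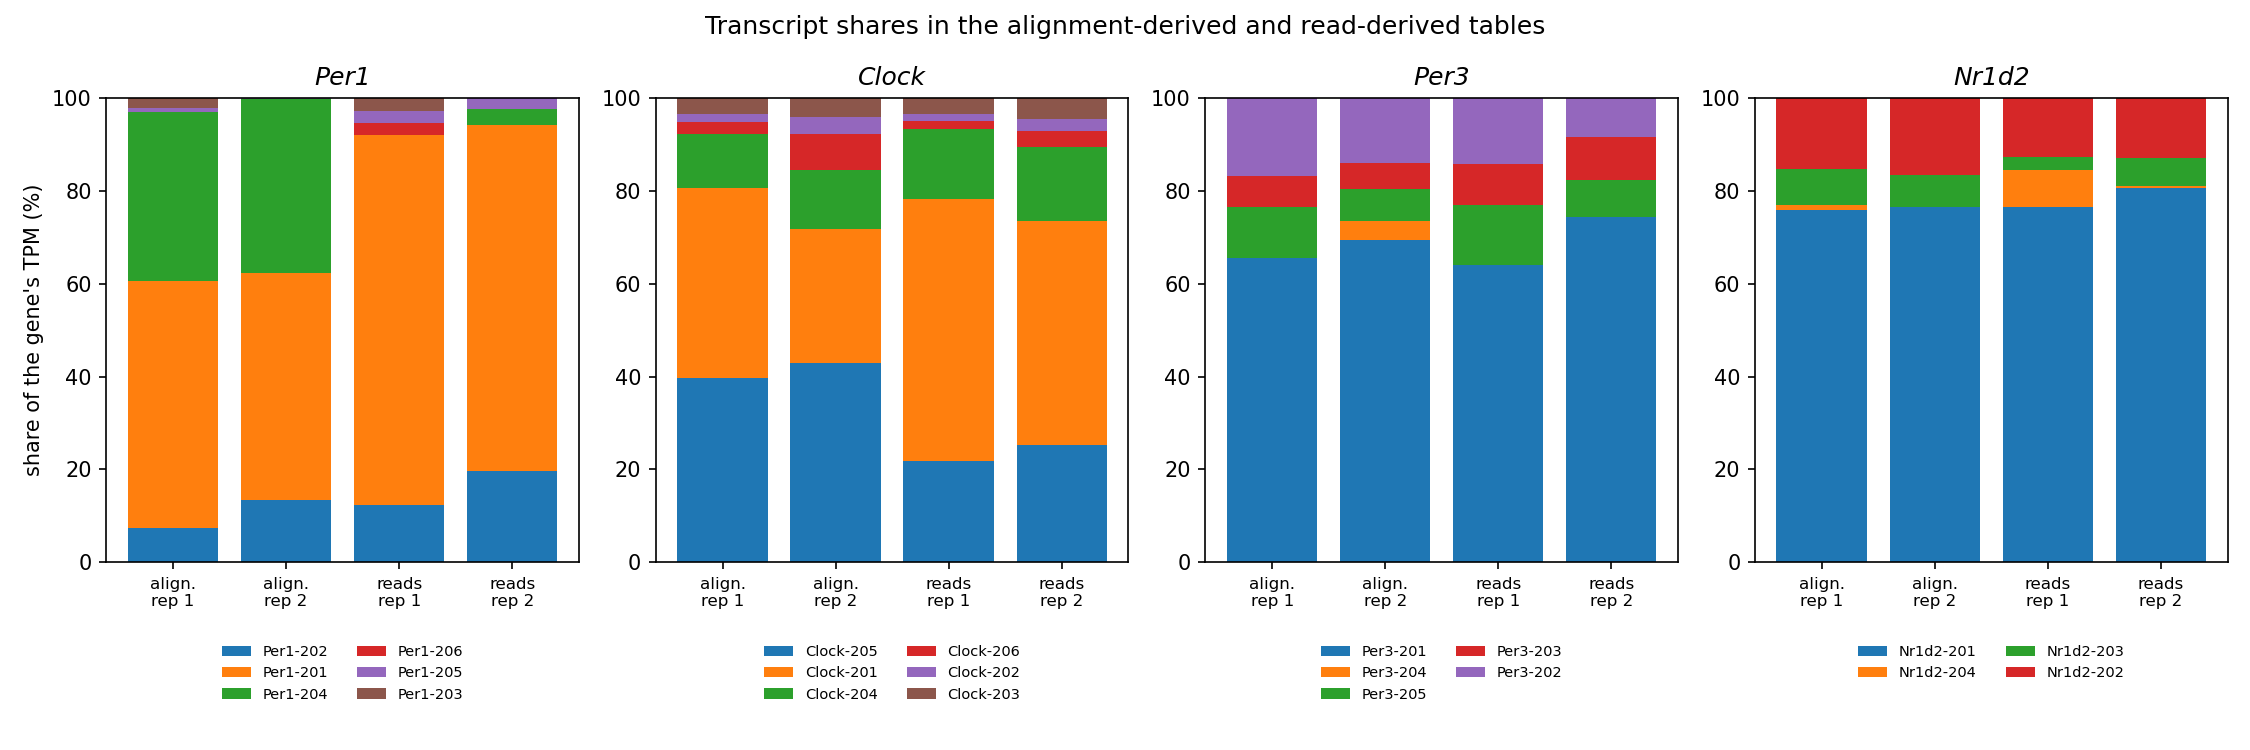
Share of each gene's TPM in its transcripts, in percent, for Per1, Clock, Per3 and Nr1d2, with 1 bar for each library in the alignment-derived and the read-derived table. Per1-204 takes 36.4% and 37.5% of Per1 in the alignment-derived bars and at most 3.39% in the read-derived bars. Clock-201 and Clock-205, close in the alignment-derived bar of replicate 1, change places.

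Around the 10 genes, 22 further genes that regulate the clock or carry its output were read. They were chosen with earlier results of these data known, so their counts carry no test. Of the 22 genes, 18 passed the count minimum, 17 of them higher in replicate 2, as were 7156 of all 12275 genes (58.3%). The median log2 ratio of the list was 0.13, beside 0.04 over all genes. Usp2, a deubiquitinase that acts on clock proteins, stood at 5.63 TPM in replicate 1 and 14.4 in replicate 2, with a log2 ratio of 1.34. Nfil3, the repressor at D-boxes, stood at 6.88 and 14.8 TPM, with a log2 ratio of 1.10. These 2 of 18 were 2-fold or more higher in replicate 2, beside 0.424% of all genes, and none was 2-fold or more lower, beside 0.481%. The 4 most abundant genes of the list differed less. Csnk1a1 and Csnk1d, kinases of the casein kinase 1 family, of which Csnk1d phosphorylates PER proteins, stood at 71.4 and 75.7 TPM and at 35.2 and 38.2 TPM. Dbp, an activator at D-boxes and a direct target of CLOCK and ARNTL, stood at 60.6 and 79.5 TPM, with a log2 ratio of 0.39. Bhlhe40, a repressor at E-boxes, stood at 34.3 and 35.3 TPM. Tef and Hlf, named after their values were seen because they share the D-box with Dbp, had log2 ratios of 0.54 and 0.59. The gene of the 18 that was lower was Fbxw11, an F-box protein of PER turnover, at 33.4 and 32.6 TPM, also named after its value was seen. The 4 genes under the count minimum, named for that reason, were Rorb at 0.09 and 0.07 TPM, Arntl2, a paralogue of Arntl, at 0.96 and 0.82 TPM, Fbxl21 at 0.96 and 1.66 TPM, and Ciart, a repressor of the CLOCK and ARNTL pair, at 0.22 and 0.68 TPM.

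Per1 and Per2 are also known to be induced by cAMP and by glucocorticoids, outside the loop, so genes known to answer those signals were read beside them. Both lists were chosen with earlier results of these data known, so their counts carry no test. Of 18 cAMP-induced and immediate-early genes, 16 passed the count minimum, 9 higher and 7 lower in replicate 2, with a median log2 ratio of 0.26. Over all 12275 genes 58.3% were higher in replicate 2, and the median was 0.04. Sik1, a kinase induced by ACTH, stood at 5.60 TPM in replicate 1 and 38.5 in replicate 2, with a log2 ratio of 2.76. The nuclear receptor genes Nr4a1 and Nr4a2 stood at 48.4 and 281 TPM and at 3.90 and 11.9 TPM. Csrnp1, an immediate-early gene, stood at 3.22 and 14.2 TPM. These 4 of 16 genes were 2-fold or more higher in replicate 2, beside 0.424% of all genes. Fos, the best-known immediate-early gene, went the other way at 13.0 and 5.72 TPM, with a log2 ratio of -1.17, 1 of 16 that was 2-fold or more lower, beside 0.481% of all genes. Fosl2, the other of the 2 most abundant, stood at 124 and 152 TPM. Of the 12 glucocorticoid target genes, all passed the minimum, 4 higher and 8 lower in replicate 2. Their median log2 ratio was -0.18, beside 0.04 over all genes. Ddit4, a stress-induced inhibitor of mTOR signalling, was at 11.4 and 23.2 TPM, and Cdkn1a, the cell cycle inhibitor p21, at 14.8 and 6.71 TPM. Thus 1 of 12 was 2-fold or more higher, beside 0.424% of all genes, and 1 of 12 lower, beside 0.481%. The 2 most abundant, the metallothioneins Mt1 and Mt2, were at 99.8 and 90.7 TPM and at 56.1 and 42.0 TPM. The part of either signal, or of a difference in time of collection, in the clock gene values was not tested.

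**Figure D4:**
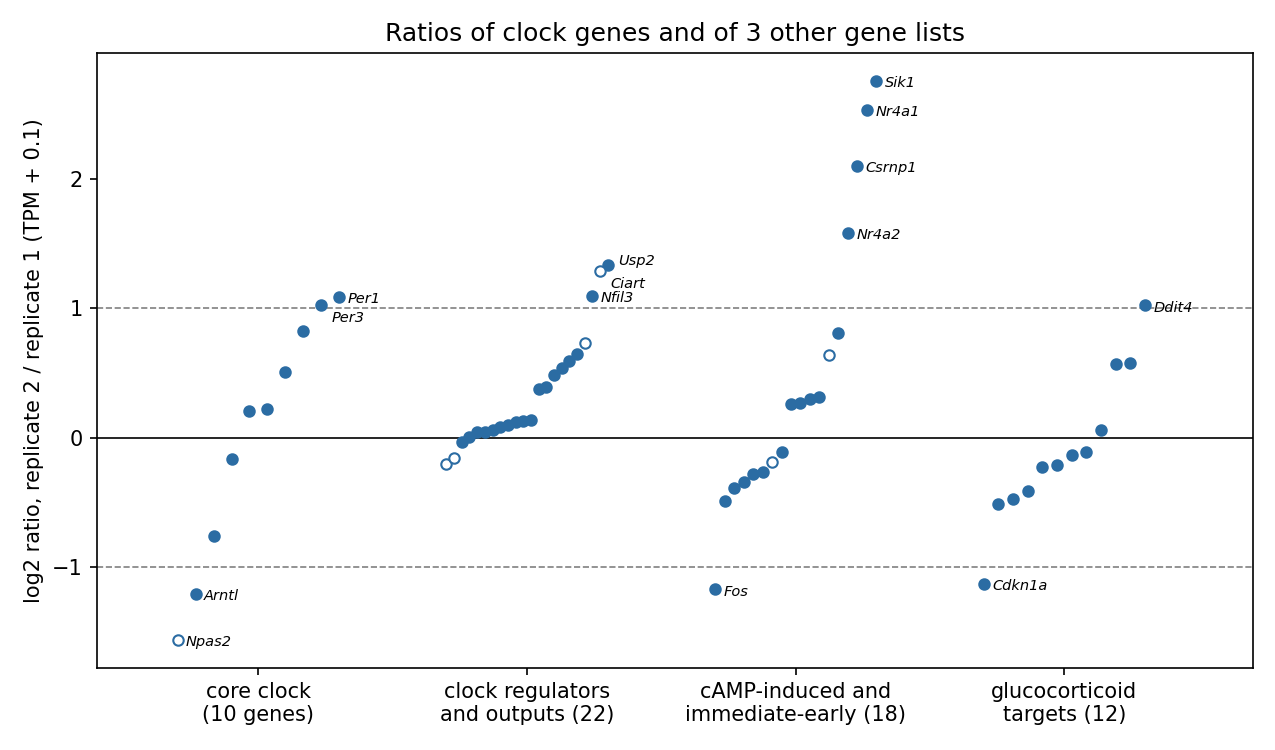
Log2 ratio of replicate 2 over replicate 1, on TPM + 0.1, for the 10 core clock genes and for 3 lists of 22, 18 and 12 genes, sorted within each list, with dashed lines at 2-fold. Open circles are genes under the minimum of 200 summed counts, and names are given for genes past 2-fold.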

How the data were processed

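Levels are TPM, a share of all transcripts corrected for their length, from the tables the authors deposited. Per the text beside the deposited files, the gene-level table and the alignment-derived table of transcripts come from a transcriptome alignment to mm10 with GENCODE M21, and the read-derived table comes straight from the reads. Per the file headers, the authors give an expected count (an estimated count in the read-derived table), TPM and the isoform percent of a gene. The deposited bounds of each TPM interval were read as a signal, and the headers do not state their level. The aligner, its version, the filters and strand handling were not given in the sources used here. Any effect of CAST/EiJ alleles on mapping to a reference built on C57BL/6J was not tested.

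The 10 genes were matched by symbol through the read-derived table, 1 record each. Members and gene lists were chosen with earlier results of these data known. With 1 group of 2 libraries no p-value was computed, and the ratios measure only the spread between these libraries, which may be technical. Ratios are replicate 2 over replicate 1 of TPM + 0.1, and a gene was called apart at 2-fold or more with 200 or more summed counts. Exact 95% intervals are Clopper-Pearson on the split of counts and cover counting error only, as the reads carry no stated molecular identifiers. Named genes are the 10 members, in the regulator list those 2-fold apart, the 4 highest and any at 0 in both libraries, and in the other 2 lists the 2 highest and those 2-fold apart. Alternatives changed the pseudocount, the count minimum, the scaling (TMM in edgeR 4.0.16 and size factors in DESeq2 1.42.0, R 4.3.3, on expected counts rounded to whole numbers), the table and the transcript models. Only the ratio formula and the 2-fold call were tried on simulated counts, with large planted changes. The simulated ratios were centred on their median, a step not taken in the results, and the intervals and transcript shares were not tried. Tables were handled in Python 3.11.15 with scipy 1.17.1, pandas 2.3.3 and numpy 2.4.6. Plots were made in matplotlib 3.10.9. Promoter sequences are those of RefSeq.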

Additional observations from a re-analysis of the deposited data

How the results depend on the processing

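The log2 ratio of none of the 10 genes changed sign under any alternative run. A changed pseudocount cannot turn the sign, and TMM moved the median of all genes only from 0.036 to -0.002. Of 70 alternative ratios, 7 moved by more than the counting interval reaches to each side, such as Clock to -0.28 under TMM. The 70 include the setting without incomplete models for every gene, which cannot move a gene that has no such model. Over all settings the log2 ratio ranged from -1.25 to -0.99 for Arntl, from 1.00 to 1.12 for Per1, from 0.88 to 1.04 for Per3 and from -2.06 to -0.73 for Npas2. With a pseudocount of 1 TPM, 1 of the 10 genes (Per1) was 2-fold or more apart in place of 3, and 73 of all genes in place of 111. With a minimum of 50 counts 298 of 15106 genes (1.97%) were 2-fold apart, and with no minimum 1907 of 55450 (3.44%). Both added Npas2 to the 3. In the read-derived table Arntl and Per1 were 2-fold apart, beside 135 of all genes. TMM, size factors, TPM over nuclear protein-coding genes, no pseudocount and incomplete models left out each kept Arntl, Per1 and Per3 past 2-fold. Per1 only just passed it under TMM and size factors, with log2 ratios of 1.0005 and 1.0015. Of the 12275 genes, 107 were 2-fold apart under TMM and 107 under size factors. With TPM over nuclear protein-coding genes 112 were, and with no pseudocount 114. Leaving out 1 library, 9 of the 10 genes were at 1 TPM or more in replicate 2 alone and 10 in replicate 1 alone. The median ratio of the regulator list was 0.26 in the read-derived table, in place of 0.13. The read-derived table moved 9 of 10 mean levels and 7 of 20 transcript shares by more than their SD, and shares of expected counts moved 8 of 10. Leaving out 1 of 2 libraries cannot move a mean by its SD and was not counted. No paired analysis was possible because there is 1 group. With 2 libraries and no time of collection in the labels, these values cannot tell a difference between animals from one between libraries, dissections or times of day. Depth limits Npas2 and Cry1 most, with 172 and 533 summed counts.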
